A study of Mus musculus with 12 samples.

Results

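Foxp3 and the core identity genes of regulatory T cells (Treg) were followed across the 4 groups of this RNA-seq series. The set held 7 of the 36222 genes in the expression table, namely Foxp3, Il2ra, Ctla4, Lrrc32, Nrp1, Gpr83 and Folr4, each matched by its symbol to a single gene identifier. All 7 passed the filter for testing, a mean of at least 5 TPM in at least 1 group (TPM is transcript abundance corrected for gene length, summing to 1000000 in each library). The libraries came from Treg of mouse spleen, sorted from CD4+ T cells of individual animals by the yellow fluorescent protein (YFP) of a Foxp3-IRES-YFP-Cre allele. WT mice carried this Cre allele with intact Ikzf1, and cKO mice also carried floxed Ikzf1, so that Cre made under Foxp3 control removed Ikaros in Treg. Mice were on a B6 background, and the animals used ex vivo were 6 to 8 weeks old per the study. Cells were taken either directly (ex vivo) or after exposure for 4 h to immobilised anti-CD3 plus anti-CD28 at 1 µg/ml apiece (stimulated), with 3 libraries in each of the 4 groups. Since the sort used a reporter driven by Foxp3, the presence of Foxp3 RNA in each library follows from the sort and is no result. In bulk RNA, fewer cells expressing a gene and less RNA per cell cannot be told apart.

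Foxp3 is the transcription factor that defines the Treg lineage. Several of its best known companions sit at the cell surface. Il2ra encodes CD25, a chain of the high-affinity IL-2 receptor, and IL-2 signalling through that receptor sustains Foxp3 expression. Ctla4 encodes an inhibitory receptor that binds CD80 and CD86 on antigen-presenting cells in competition with CD28. Lrrc32 encodes GARP, which holds latent TGF-beta on the Treg surface. Nrp1 encodes neuropilin 1, a receptor for semaphorins and VEGF that marks thymus-derived Treg in mice. Gpr83 encodes a G protein-coupled receptor and Folr4 a folate receptor family protein (now named Izumo1r), both long used as Treg signature transcripts.

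The libraries held 8208659 to 20247649 reads assigned to genes. The targeted gene Ikzf1 ranged from 104 to 114 scaled TPM in WT and from 33.0 to 42.1 in cKO libraries ex vivo. Stimulated WT libraries had 66.7 to 71.1 and stimulated cKO libraries 23.3 to 30.1, so no WT library overlapped a cKO library. Of the 6 Treg markers all were above 5 scaled TPM in every group, as were all 6 T cell markers. None of the markers of myeloid, dendritic, NK or erythroid cells reached that level in any group, nor did B cell markers other than Cd79b or CD8 markers other than 1 of 2. The summed B cell markers spanned 11.6 to 18.9 (WT) and 18.8 to 23.8 (cKO) scaled TPM ex vivo, and 15.0 to 16.3 (WT) and 19.8 to 31.4 (cKO) once stimulated, where Cd79b was called higher in cKO (0.96, adjusted p 0.0283, in 14 of 22 alternatives), and their part in the results below was not tested. Other sums moved with the genotype of the stimulated cells as well. Those of the T cell markers lay at 1226 to 1380 in WT and 893 to 1116 in cKO. There 3 of 6, Cd3d, Lck and Cd5, were called lower, against 3.63% of tested genes. Cd5 alone kept its call in all 12 fits without a library, and none of the 3 did at the looser filters. The sums of the 4 NK markers lay at 8.33 to 9.89 in WT and 11.2 to 15.0 in cKO. The T cell marker sums had been 1661 to 2081 (WT) and 1755 to 1973 (cKO) ex vivo, above every stimulated library of the same genotype. With stimulation 5 of 6 T cell markers were called lower in WT and 6 of 6 in cKO, against 19.3% and 26.5% of tested genes. Quantile normalization, however, turned the sign for Cd3e in both genotypes, Cd3g and Cd4 in WT and Cd5 in cKO. The part of these markers in the genotype and stimulation effects was not tested either. A single gene model, Gm10800, took 17.7% to 39.8% of the TPM in WT and 20.4% to 24.4% in cKO libraries ex vivo, and 32.6% to 44.4% and 42.9% to 55.9% after stimulation, with the highest share in cKO stimulated 3. The share thus moved with stimulation, without overlap in cKO, and its part in the results was not tested beyond the scalings given below. TPM add up to a fixed total, so a large share of that gene lowers the TPM of all others. Levels are therefore given as scaled TPM, the deposited TPM divided by a factor per library (0.732 to 1.21) that aligns the bulk of the genes. WT ex vivo 3 had 179 TPM of Xist and 0.097 TPM of the Y-linked gene Ddx3y, the pattern of a female, whereas Xist stayed at or below 1.36 TPM in the other 11 libraries. Foxp3 lies on the X chromosome, so its values are also given without that library.

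The members spanned a wide range of levels (the plot of levels by library). In WT ex vivo the order by mean scaled TPM was Ctla4 (750.4), Folr4 (283), Lrrc32 (224), Foxp3 (168), Il2ra (134), Nrp1 (63.4) and Gpr83 (22.7). cKO ex vivo had the same order. In both, Folr4 exceeded Lrrc32 in 2 of 3 libraries, and every other neighbouring pair kept its order in 3 of 3. After stimulation Lrrc32 came first in both genotypes, at 337 in WT and 407 in cKO, followed by Ctla4 at 206 and 256. Il2ra and Foxp3 came next and were not separable, since Il2ra was the higher of the pair in 2 of 3 libraries of each genotype. Folr4, Nrp1 and Gpr83 followed, and in cKO stimulated Nrp1 exceeded Gpr83 in only 2 of 3 libraries. Ctla4 ranked 67 among the 13318 tested genes in both ex vivo groups, and Gpr83 was the lowest ranked member there, at percentile 75.3 in WT and 73.8 in cKO.

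**Figure D1:**
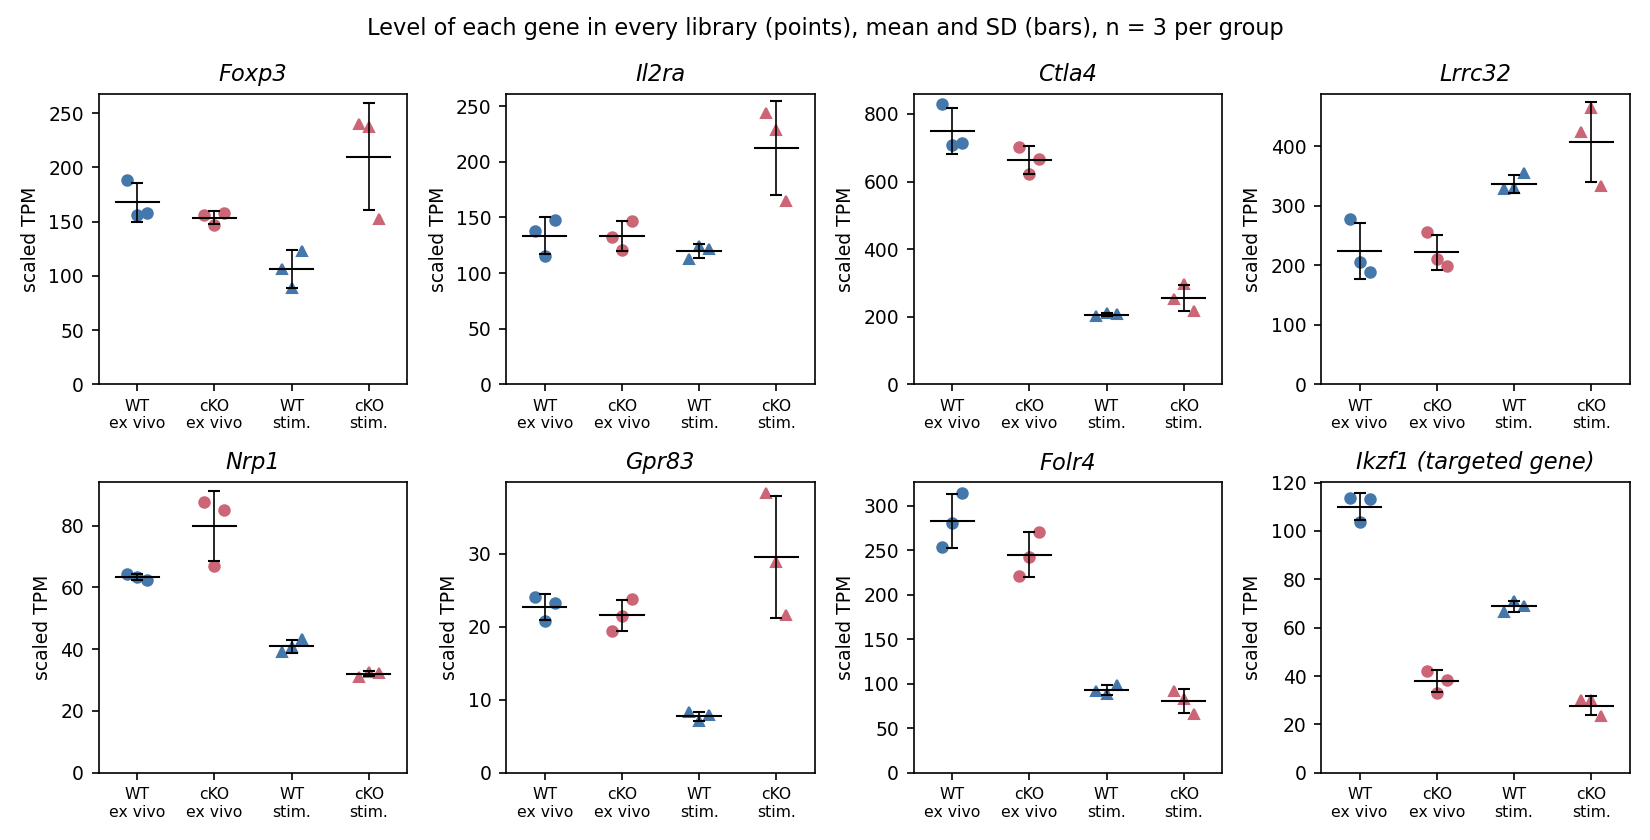
Scaled TPM of the 7 members and of the targeted gene Ikzf1 in each of the 12 libraries (points), with the mean and SD of each group (bars, n = 3). In the stimulated groups Foxp3, Il2ra and Gpr83 stood higher in each cKO library than in any WT library, whereas Folr4 and Lrrc32 overlapped.

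Each of 5 comparisons was fitted with limma over all tested genes, and a gene was called at an adjusted p under 0.05 (the plot of log2 changes). Ex vivo, loss of Ikaros left no member called, 0 of 7, against 5.29% of all tested genes called in either direction. At an unadjusted p under 0.05 there was 1 of 7, Nrp1, against 17.9% of tested genes. After stimulation 3 of 7, Foxp3, Il2ra and Gpr83, were higher in cKO than in WT, against 3.30% of tested genes called higher, and none was lower. Stimulation of WT cells lowered 5 of 7 (Foxp3, Ctla4, Nrp1, Gpr83 and Folr4; 19.3% of tested genes fell) and raised 1, Lrrc32 (12.7% rose). Stimulation of cKO cells lowered 3 of 7 (Ctla4, Nrp1 and Folr4; 26.5% fell) and raised 2, Il2ra and Lrrc32 (17.3% rose). The interaction, which asks whether the stimulation effect differs between genotypes, was called for 1 of 7, Gpr83, against 1.10% of tested genes. The median log2 change of the members was -0.07, 0.30, -0.66, 0.41 and 0.47 in these 5 comparisons, beside -0.01, -0.03, 0.00, -0.01 and -0.04 for all tested genes. These comparisons share groups, so their results are not independent of each other.

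**Figure D2:**
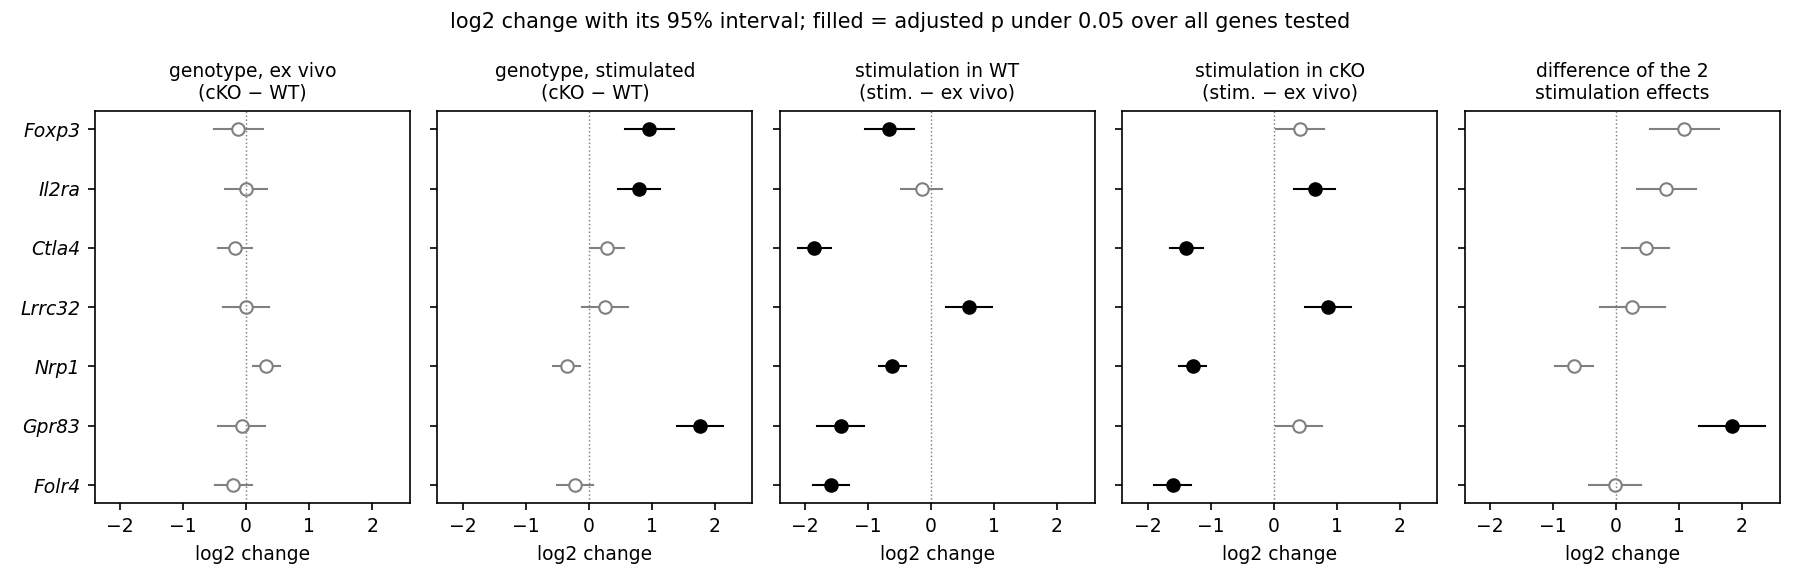
Fitted log2 change (x axis) of each member with its 95% interval in the 5 comparisons, filled where the adjusted p over all tested genes was under 0.05. No member is filled for the genotype effect ex vivo, and Gpr83 alone is filled in the right-hand panel, the difference of the stimulation effects.

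Groups can also be read directly from the libraries. Ex vivo the scaled TPM of the genotypes did not overlap for 2 of 7 members, Nrp1 (higher in cKO) and Ctla4 (lower in cKO), and 21.5% of tested genes were separated in this way in either direction. After stimulation they did not overlap for 5 of 7, of which Foxp3, Il2ra, Ctla4 and Gpr83 were higher and Nrp1 lower in cKO, against 30.8% of tested genes. With 3 libraries against 3 an exact two-sided permutation test of a single gene cannot go below 0.1, the value that each of these 7 separations had. For the TPM as deposited only Nrp1 was separated ex vivo, and only Nrp1 and Gpr83 after stimulation. The share of all tested genes separated in this way was not counted on deposited TPM, so these counts have no background beside them.

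Foxp3 (ENSMUSG00000039521; mm9 chromosome X, 7156802 to 7172369, plus strand) stood at 189, 157 and 158 scaled TPM in WT ex vivo and at 156, 147 and 158 in cKO ex vivo. The ex vivo groups overlapped, and the log2 difference of -0.12 had a 95% interval of -0.51 to 0.26 (adjusted p 0.804). After stimulation the WT libraries held 107, 88.6 and 123 scaled TPM and the cKO libraries 240, 237 and 153. All 3 stimulated cKO libraries lay above all 3 stimulated WT libraries, and all 3 stimulated WT libraries lay below every ex vivo library. The means were 106 ± 17.4 in WT and 210 ± 49.6 in cKO (SD, n = 3), a log2 difference of 0.96 (SE 0.18, adjusted p 0.00847). Foxp3 fell by 0.66 with stimulation in WT (SE 0.18, adjusted p 0.0145), and in cKO it stood 0.42 above the ex vivo level (SE 0.18, adjusted p 0.0734), which did not pass. The difference between these stimulation effects was 1.08 (SE 0.25, adjusted p 0.0675) and did not pass either. Without the library with high Xist, WT ex vivo 3, the fall in WT was -0.69 (adjusted p 0.0324) and the genotype difference ex vivo -0.17 (adjusted p 0.793).

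The stimulated cKO libraries were uneven for Foxp3, with cKO stimulated 3 at 153 against 240 and 237, and that library also had the fewest reads (8208659) and the largest Gm10800 share (55.9%). Without it Foxp3 rose with stimulation in cKO by 0.68 (adjusted p 0.00502) and the interaction reached 1.34 (adjusted p 0.0203). With all libraries the rise in cKO passed after median of ratios scaling (0.48, adjusted p 0.0419) and after quantile normalization (1.19, 0.000249), and the interaction after quantile normalization (1.31, 0.0143). Leaving out any 1 of the 12 libraries kept the genotype call after stimulation. It was lost on the TPM as deposited (0.67, adjusted p 0.176), with a 1 TPM filter (0.65, 0.366), with no filter (0.66, 0.368) and when only the stimulated groups were fitted (0.99, 0.0521). As deposited, Foxp3 was at 119, 82.7 and 149 TPM in stimulated WT and at 253, 212 and 112 TPM in stimulated cKO libraries, and these overlapped. The fall in WT was lost without WT ex vivo 1 (adjusted p 0.0577) or WT stimulated 2 (0.0582), as well as on deposited TPM (-0.46, 0.313), after quantile normalization (-0.12, 0.619), with the 1 TPM filter (-0.92, 0.111) and with no filter (-0.89, 0.133).

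Foxp3 shares exon sequence with a gene model on the same strand, 4930524L23Rik (chromosome X, 7150726 to 7158141). The shared stretch covers 267 of 3953 Foxp3 exon bases (6.75%), and reads falling there could not be assigned to either gene by the authors' union counting. 4930524L23Rik held 341 to 947 reads per library, against 3162 to 8434 for Foxp3. Its mean scaled TPM ex vivo was 20.7 (WT) and 19.3 (cKO), and after stimulation 14.8 (WT) and 24.0 (cKO), so the stimulated WT group was lowest and the stimulated cKO group highest, as for Foxp3. It was also the gene whose profile over the 12 libraries came closest to that of Foxp3 among 12164 candidates, with a root mean square difference of 0.13 on the log2 scale, followed by Obfc2a (0.15) and Dtx3l (0.16). These differences describe the same 12 libraries and share their scaling, and no test was made on them.

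Il2ra (ENSMUSG00000026770; chromosome 2, 11564419 to 11614818, plus strand) was at 138, 115 and 148 scaled TPM in WT ex vivo and at 133, 121 and 147 in cKO ex vivo. The ex vivo levels overlapped throughout, with a log2 difference of 0.00 and an interval of -0.33 to 0.33. After stimulation Il2ra was at 112, 124 and 122 in WT and at 244, 228 and 165 in cKO. Every stimulated cKO library exceeded every other library, while WT stayed within or just below its ex vivo range. The log2 difference between stimulated genotypes was 0.80 (SE 0.15, adjusted p 0.00971). Stimulation raised Il2ra by 0.65 in cKO (SE 0.15, adjusted p 0.00583), and the change in WT was -0.15 with an interval of -0.48 to 0.18 (adjusted p 0.476). Quantile normalization turned the WT change to 0.37 (adjusted p 0.0279) and enlarged that in cKO to 1.41. The interaction of 0.80 did not pass (adjusted p 0.108), but did without cKO stimulated 3 (1.02, 0.0315) and after quantile normalization (1.05, 0.00671). Both calls held in 12 of 12 fits that left out a library and were lost on deposited TPM (0.51, adjusted p 0.2199, between genotypes; 0.32, 0.366, with stimulation in cKO), with the 1 TPM filter (0.50, 0.452; 0.10, 0.845) and with no filter (0.50, 0.458; 0.12, 0.838). The genes nearest to Il2ra in profile were Spsb1 (0.13), Notch2 (0.15) and Gm6226 (0.15).

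The IL-2 receptor pathway around Il2ra was read from a list of 13 genes, all tested. Ex vivo 4 of 13 were called higher in cKO (Cish, Socs2, Socs3 and Pim1) and none lower, against 3.62% of tested genes called higher and 1.67% lower. Of these 4, Socs2 was called in each of the 12 fits without a library, and Pim1 in only 8 of 22 alternatives. After stimulation 6 of 13 were higher (Il2, Cish, Socs1, Socs2, Socs3 and Bcl2) and none lower, against 3.30% of tested genes higher and 3.63% lower. The 6 include Il2, which passed the filter only through the stimulated cKO group and so adds no support to this count. Il2 and Socs3 lost the call in some fits without a library, and the other 4 kept it in all 12. The list's median log2 difference, Il2 included, was 0.29 ex vivo and 0.38 after stimulation, beside -0.01 and -0.03 for all tested genes. Socs1, a feedback inhibitor of cytokine signalling, averaged 50.3 scaled TPM in WT stimulated and 231 in cKO stimulated (log2 2.18, adjusted p 0.000285). Socs2, a related inhibitor, averaged 4.81 and 22.8 (2.02, adjusted p 6.26e-05), and Cish, a STAT5 target that dampens IL-2 signalling, 39.5 and 85.6 (1.08, 0.00151). Bcl2, a survival factor, averaged 18.7 and 38.1 (0.98, 0.00101). Il2 itself averaged 1.00 (WT) and 1.02 (cKO) scaled TPM ex vivo and 1.49 in stimulated WT cells, against 9.62 in stimulated cKO cells. It passed the filter only through that last group, so its call is no support for a difference. The other receptor chains were not called between genotypes: Il2rb differed by 0.38 after stimulation (adjusted p 0.122) and Il2rg by -0.43 (adjusted p 0.089). Both fell with stimulation in cKO, Il2rb by 0.89 (adjusted p 0.000436) and Il2rg by 0.72 (0.00201), while Il2ra rose there, and Il2rb fell in WT too (-0.95, adjusted p 0.000353). After quantile normalization none of these falls was called and Il2rg in cKO stood at 0.04, and the rise of Il2ra was lost under the settings named above. For the interaction 2 of 13 were called, Socs1 (2.04, adjusted p 0.0137) and Bcl2 (1.33, 0.0122), against 1.10% of tested genes. Both of these calls were lost on deposited TPM, with the 1 TPM filter and without a filter. On deposited TPM 2 of 13 were higher ex vivo and 2 after stimulation, and with the 1 TPM filter 0 and 1.

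Ctla4 (ENSMUSG00000026011; chromosome 1, 60943844 to 60972676, plus strand) was the most abundant member ex vivo, at 829, 708 and 714 scaled TPM in WT and 703, 622 and 667 in cKO. It then fell in both genotypes. The stimulated WT libraries held 201, 209.8 and 209 scaled TPM, and those of cKO 253, 296 and 218. The fall was 1.85 on the log2 scale in WT (SE 0.12, adjusted p 2.9e-06), or 3.62-fold, and 1.38 in cKO (SE 0.12, adjusted p 1.2e-05), or 2.61-fold. Both falls were called in all 22 alternative fits, but quantile normalization reduced them to log2 changes of -1.04 in WT and -0.55 in cKO. The genotypes did not overlap in either condition, but neither difference passed: -0.17 ex vivo (interval -0.44 to 0.09, adjusted p 0.526) and 0.30 after stimulation (interval 0.03 to 0.56, adjusted p 0.172). The latter was called after quantile normalization (0.51, adjusted p 0.0163) and was -0.01 with the 1 TPM filter or without a filter. Dusp5 (0.13), Coro2a (0.14) and Mafk (0.17) had the profiles closest to that of Ctla4.

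Around Ctla4, 9 of the 10 listed genes of the CD28 family, their ligands and CTLA-4 trafficking were tested. Ex vivo 3 of 9 were higher in cKO (Pdcd1, Cd80 and Lrba), and after stimulation 2 were higher (Icos and Cd80) and 1 lower (Cd28). The shares of all tested genes were 3.62% higher ex vivo, and 3.30% higher and 3.63% lower after stimulation. Pdcd1 was called ex vivo in 14 and Lrba in 6 of 22 alternatives, and Cd80 after stimulation in 14. On deposited TPM Cd80 ex vivo and Cd28 kept their calls, and with the 1 TPM filter none did. Cd28, the activating counterpart of CTLA-4, averaged 279 scaled TPM in WT ex vivo and 280.2 in cKO ex vivo and fell with stimulation in both genotypes, to 109 in WT and 67.5 in cKO. The stimulated genotypes differed by -0.68 for Cd28 (adjusted p 0.00443). Icos, another costimulatory receptor of this family, averaged 82.8 in WT stimulated and 156 in cKO stimulated (0.90, adjusted p 0.00212). Pdcd1, which encodes the inhibitory receptor PD-1, moved opposite to Ctla4 with stimulation, rising by 3.17 in WT (adjusted p 1.51e-07) and by 2.46 in cKO (5.78e-07).

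Lrrc32 (ENSMUSG00000090958; chromosome 7, 105642732 to 105650341, plus strand) rose with stimulation in both genotypes. Ex vivo its scaled TPM was 278, 206 and 188 in WT and 255, 210.1 and 199 in cKO. The stimulated libraries held 328, 329 and 355 (WT) and 423, 464 and 334 (cKO). Every stimulated library was above every ex vivo library of its genotype, and the genotypes overlapped in both conditions. The rise was 0.61 in WT (SE 0.17, adjusted p 0.0169) and 0.87 in cKO (SE 0.17, adjusted p 0.002). The genotype differences were -0.00 ex vivo (interval -0.37 to 0.36) and 0.26 after stimulation (interval -0.11 to 0.62, adjusted p 0.371). In WT the rise was lost without WT ex vivo 3 (adjusted p 0.061) or WT stimulated 3 (0.0572), on deposited TPM (0.81, 0.0686), with the 1 TPM filter (0.35, 0.585) and without a filter (0.38, 0.566). In cKO it was lost on deposited TPM (0.54, 0.146), with the 1 TPM filter (0.32, 0.511) and without a filter (0.33, 0.514). Quantile normalization enlarged the rises to 1.36 in WT and 1.66 in cKO. The nearest profiles were those of Aff1 (0.11), Solh (0.12) and Ppard (0.14).

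The GARP and TGF-beta list held 12 genes, all tested. Itgb8, a subunit of the integrin that activates the TGF-beta held by GARP, rose with stimulation from 7.39 to 26.5 scaled TPM in WT (log2 1.71, adjusted p 9.07e-06) and from 8.27 to 33.3 in cKO (1.88, 3.61e-06). Tgfb1 itself averaged 106 (WT) and 128 (cKO) scaled TPM ex vivo and 128 (WT) and 115 (cKO) after stimulation, and it was called in none of the 5 comparisons. Between genotypes, 2 of 12 were higher (Itgav and Furin) and 1 lower (Tgfbr1) in cKO ex vivo, and 2 were lower (Smad3 and Smad7) and none higher after stimulation. Of all tested genes 3.62% were higher and 1.67% lower ex vivo, and 3.63% lower after stimulation. Tgfbr1 was called in only 5 and Smad7 in only 8 of 22 alternatives. With the 1 TPM filter none of these calls was made. Smad3, which carries the TGF-beta signal to the nucleus, averaged 22.2 in WT stimulated and 13.0 in cKO stimulated (-0.73, adjusted p 0.00415).

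Nrp1 (ENSMUSG00000025810; chromosome 8, 130882973 to 131029362, plus strand) fell with stimulation in both genotypes. Ex vivo the WT libraries held 64.2, 63.5 and 62.4 scaled TPM and the cKO libraries 87.5, 67.01 and 85.2. With stimulation these became 39.0, 40.6 and 43.2 in WT and 31.1, 32.6 and 32.3 in cKO. The cKO libraries thus lay above all WT libraries ex vivo and below all of them after stimulation, without overlap. The differences were 0.32 ex vivo (interval 0.10 to 0.53, p 0.00747, adjusted p 0.095) and -0.34 after stimulation (interval -0.56 to -0.13, p 0.00476, adjusted p 0.0598), and neither passed over all genes. The fall with stimulation was 0.62 in WT (SE 0.10, adjusted p 0.000715) and 1.28 in cKO (SE 0.10, adjusted p 5.11e-06), and the difference between these falls was -0.66 (SE 0.14, adjusted p 0.0501), just outside the threshold. cKO ex vivo 2 was the lowest of its group at 67.01. Without that library the genotype difference was called ex vivo (0.44, adjusted p 0.0133) and after stimulation (-0.34, 0.0146), and so was the interaction (-0.78, 0.0126). With all libraries the interaction was also called after quantile normalization (-0.53, adjusted p 0.0469) and with a pseudocount of 0.1 (-0.68, 0.0492). The fall in WT was lost only on deposited TPM (-0.42, adjusted p 0.159). Zfp91 (0.09), Polg2 (0.11) and Atad2 (0.11) followed Nrp1 most closely. Mir1903, a microRNA gene on the same strand, overlaps exon sequence of Nrp1.

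Of 11 listed semaphorin, plexin and neuropilin partners 7 were tested. Plxnd1, a semaphorin receptor, was higher in cKO both ex vivo (9.02 against 23.3 scaled TPM, log2 1.28, adjusted p 5.25e-05) and after stimulation (7.26 against 13.0, 0.76, 0.00102). Sema4a, a ligand reported to act on Nrp1 in Treg, averaged 3.23 in WT stimulated and 4.99 in cKO stimulated (0.50, adjusted p 0.0243). The Sema4a call was made in only 11 of 22 alternatives and was lost on deposited TPM and after quantile normalization, among others, and the stimulated call of Plxnd1 was lost on deposited TPM and at the looser filters. Of the 7 tested partners 1 was called higher ex vivo and 2 after stimulation, against 3.62% and 3.30% of tested genes, and none lower, against 1.67% and 3.63%.

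Gpr83 and Folr4 are neighbours. Gpr83 (ENSMUSG00000031932) lies on chromosome 9 at 14664654 to 14675233 on the plus strand and Folr4 (ENSMUSG00000031933) at 14690258 to 14708395 on the minus strand, with 15024 bases and no annotated gene between their 3′ ends. Gpr83 was at 24.1, 20.7 and 23.3 scaled TPM in WT ex vivo and at 19.4, 21.5 and 23.7 in cKO ex vivo. After stimulation it was at 8.29, 7.06 and 7.91 in WT and at 38.2, 28.8 and 21.6 in cKO. Every stimulated WT library was below every other library, and the stimulated cKO libraries ranged from within the ex vivo range to well above it. These levels rested on 328 to 1548 reads per library. Gpr83 fell by 1.44 with stimulation in WT (SE 0.17, adjusted p 9.85e-05), a 2.71-fold fall on the scale of the fit, and was called in all 22 alternative fits. In cKO it was 0.41 above the ex vivo level (SE 0.17, adjusted p 0.0694), which did not pass. It did pass without cKO stimulated 3 (0.65, adjusted p 0.00664), after median of ratios scaling (0.47, 0.0416) and after quantile normalization (0.71, 0.0068), and it was -0.12 with the 1 TPM filter. The stimulated genotypes differed by 1.77 (SE 0.17, adjusted p 0.000218), and their mean scaled TPM were 7.75 ± 0.629 in WT and 29.6 ± 8.35 in cKO (SD, n = 3), a ratio of 3.81. This was the largest genotype difference among the members. The interaction was 1.84 (SE 0.24, adjusted p 0.0122). The genotype call was lost with the 1 TPM filter (1.47, adjusted p 0.059) and without a filter (1.48, 0.0617). The interaction call held in 12 of 12 fits without a library and was lost on deposited TPM (1.34, adjusted p 0.0985), with the 1 TPM filter (1.56, 0.447) and without a filter (1.55, 0.402).

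Folr4 took a different course from its neighbour. Ex vivo it was at 254, 281 and 314 scaled TPM in WT and at 221, 243 and 271 in cKO. After stimulation WT libraries were at 92.1, 88.1 and 98.7 and cKO libraries at 92.2, 83.0 and 66.2. The genotypes overlapped in both conditions, and every stimulated library was far below every ex vivo library. The fall was 1.59 in WT (SE 0.13, adjusted p 1.3e-05) and 1.60 in cKO (SE 0.13, adjusted p 8.32e-06), about 3.01-fold and 3.04-fold. Both were called in all 22 alternative fits, with smaller log2 changes of -0.95 in each genotype after quantile normalization. The difference between the falls was -0.01, with an interval of -0.43 to 0.40. The genotype difference was -0.20 ex vivo (interval -0.50 to 0.09, adjusted p 0.492) and -0.22 after stimulation (interval -0.51 to 0.07, adjusted p 0.342). Snord104 (0.11), Atp2a3 (0.13) and Arhgdib (0.13) came closest to Folr4, while the nearest profiles to Gpr83 were more distant, Zbp1 (0.33), Rnf19b (0.33) and Xbp1 (0.34).

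The ratio of 2 genes within a library is unchanged by any scaling with a factor per library, though quantile normalization can change it. These ratios were chosen after the levels had been seen and are given as a description. Ex vivo, Gpr83 to Folr4 was 0.095, 0.0739 and 0.074 (WT) and 0.0878, 0.0884 and 0.0875 (cKO). In stimulated cells it was 0.0899, 0.0801 and 0.0801 (WT) and 0.415, 0.347 and 0.327 (cKO). The first 3 groups overlapped near 0.08, and all 3 stimulated cKO libraries were more than 3 times above them. Foxp3 to Ctla4 was 0.223 ± 0.0037 in WT ex vivo and 0.232 ± 0.0081 in cKO ex vivo, and after stimulation 0.515 ± 0.0855 in WT and 0.818 ± 0.125 in cKO (SD, n = 3). Il2ra to Ctla4 went from 0.178 ± 0.0245 and 0.201 ± 0.017 ex vivo to 0.579 ± 0.017 in WT stimulated and 0.831 ± 0.117 in cKO stimulated. For both ratios the stimulated cKO libraries exceeded all stimulated WT libraries. Foxp3 to Il2ra, in contrast, was 0.712 to 1.01 (WT) and 0.929 to 1.04 (cKO) in stimulated cells, and the genotypes overlapped.

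**Figure D3:**
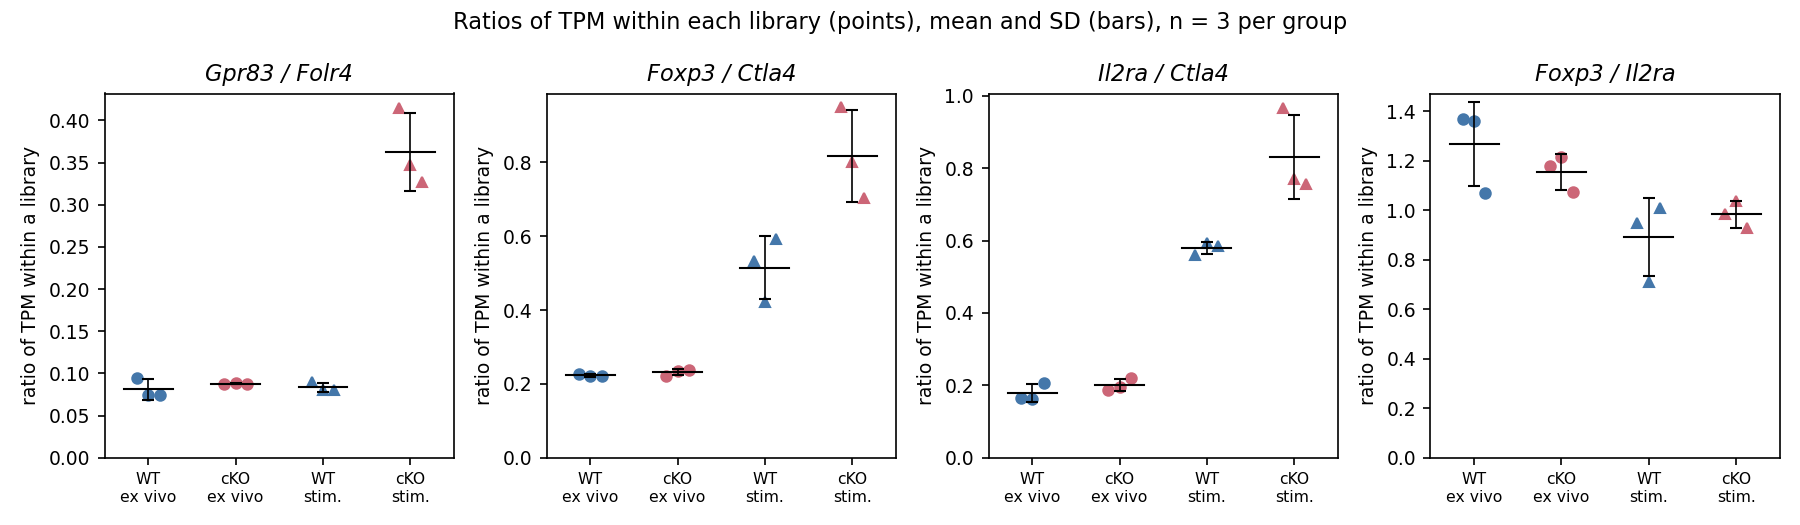
Ratio of the TPM of 2 members within each library (points), with the mean and SD of each group (bars, n = 3). Gpr83 to Folr4 stayed between 0.0739 and 0.095 in 9 libraries and was 0.327 to 0.415 in the 3 stimulated cKO libraries.

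Several of these calls depended on the scaling. Relative to scaled values, the deposited TPM shifted the median tested gene by 0.22 for the genotype effect ex vivo, -0.26 for the genotype effect after stimulation, 0.18 and -0.30 for stimulation in WT and cKO, and -0.48 for the interaction. Factors computed with the 1 TPM filter shifted it by -0.01, -0.27, -0.23, -0.49 and -0.26. Measured from the median gene of the same fit, the genotype difference of Foxp3 after stimulation was 1.00, and it ranged from 0.96 to 1.31 over the main fit and 10 alternatives of scaling, filter, pseudocount and model. The same range was 0.80 to 1.14 for Il2ra and 1.43 to 2.04 for Gpr83, while it was 0.30 to 0.57 for Ctla4, 0.26 to 0.45 for Lrrc32, -0.33 to -0.15 for Nrp1 and -0.21 to 0.04 for Folr4 (the plot by scaling). Subtracting the median gene removes by construction any shift shared by all genes. These ranges are therefore a description and no test of the calls.

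**Figure D4:**
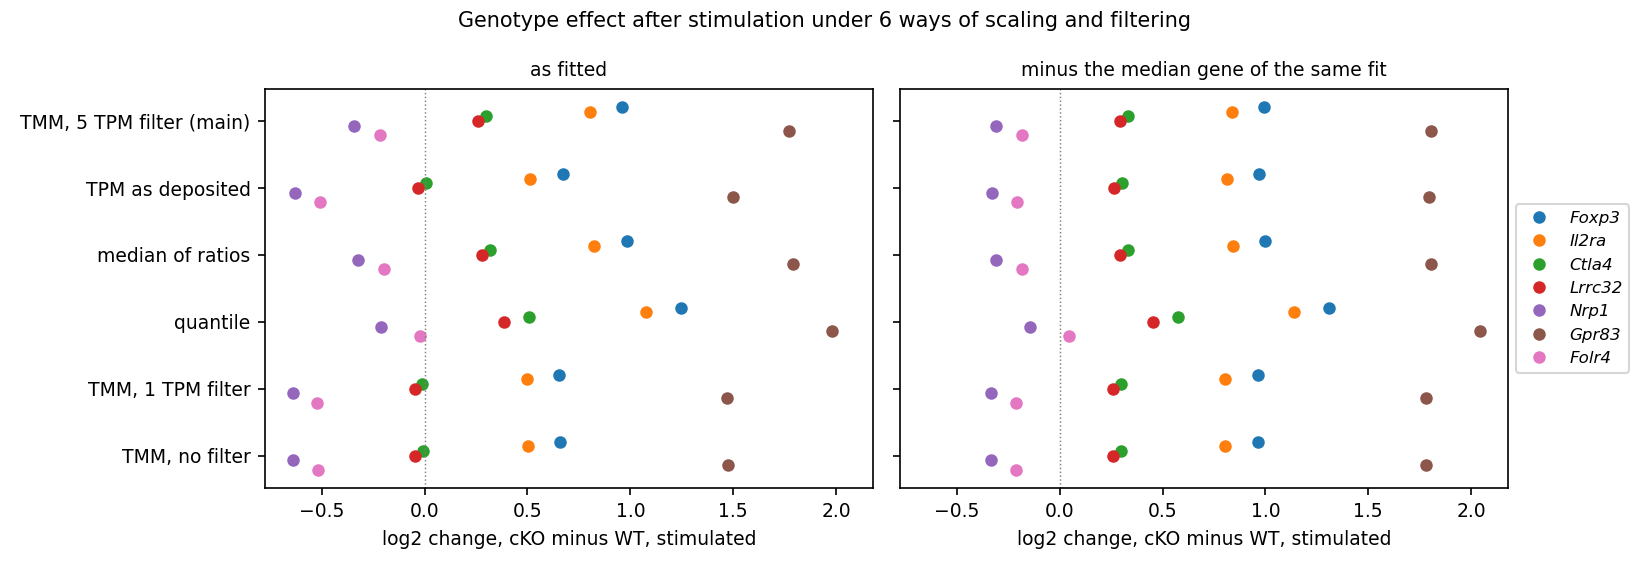
Log2 difference between stimulated cKO and WT (x axis) of the 7 members under 6 ways of scaling and filtering (y axis), as fitted (left) and after subtraction of the median gene of the same fit (right). Gpr83, Foxp3 and Il2ra lie furthest to the right under each of the 6. The spread between scalings is narrower on the right, though part of it remains. Subtraction of the median gene takes out any shift shared by all genes, so this narrowing was set in advance.

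The promoters of the 3 genes that were higher in stimulated cKO cells are shown together with that of Folr4, the neighbour of Gpr83 that was not. They are RefSeq windows on build GRCm38.p6, from 250 bases before to 50 bases after the annotated start, and 6 of 7 members had an entry. Capitals mark matches to GGGAA, the core of Ikaros binding sites, on either strand (TTCCC on the strand shown).
Foxp3 (chrX:7579426-7579725, plus strand): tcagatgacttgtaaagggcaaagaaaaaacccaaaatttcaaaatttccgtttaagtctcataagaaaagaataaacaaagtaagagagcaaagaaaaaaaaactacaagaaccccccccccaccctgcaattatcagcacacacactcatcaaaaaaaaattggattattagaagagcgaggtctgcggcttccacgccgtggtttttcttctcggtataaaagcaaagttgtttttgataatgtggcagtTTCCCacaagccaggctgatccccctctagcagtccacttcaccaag
Il2ra (chr2:11642542-11642841, plus strand): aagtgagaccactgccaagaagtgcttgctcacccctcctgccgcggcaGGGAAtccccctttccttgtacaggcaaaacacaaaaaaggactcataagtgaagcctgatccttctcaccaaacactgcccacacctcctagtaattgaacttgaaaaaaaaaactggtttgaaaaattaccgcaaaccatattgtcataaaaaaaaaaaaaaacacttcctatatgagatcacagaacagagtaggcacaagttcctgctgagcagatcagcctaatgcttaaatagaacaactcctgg
Gpr83 (chr9:14859960-14860259, plus strand): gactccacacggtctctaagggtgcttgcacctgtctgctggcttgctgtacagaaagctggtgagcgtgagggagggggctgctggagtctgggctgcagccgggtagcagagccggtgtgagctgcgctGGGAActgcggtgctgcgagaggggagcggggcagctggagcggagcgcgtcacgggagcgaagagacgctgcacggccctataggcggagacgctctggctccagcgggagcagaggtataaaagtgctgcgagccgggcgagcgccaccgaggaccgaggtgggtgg
Folr4 (chr9:14903718-14904017, minus strand): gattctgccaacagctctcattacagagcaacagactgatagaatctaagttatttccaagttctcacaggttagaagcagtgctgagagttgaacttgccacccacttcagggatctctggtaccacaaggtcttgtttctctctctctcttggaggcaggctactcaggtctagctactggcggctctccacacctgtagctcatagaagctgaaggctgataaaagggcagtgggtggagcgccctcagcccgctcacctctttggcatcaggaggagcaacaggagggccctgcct
The 3 promoters of the genes that were higher each held 1 match, and the Folr4 window held none. Nrp1 had 4 matches, Ctla4 none and a further Foxp3 window (chrX:7580233-7580532) none. Of all 32851 windows of this length, 62.7% held at least 1 match, so a match is a common feature of promoters. A forkhead motif, GTAAACA on either strand, was in none of the 7 windows of the members and in 3.65% of all windows. TTCNNNGAA, the palindrome recognised by STAT5 and its relatives, was found once, in the second Foxp3 window, and in 8.30% of all windows. These are matches of letters and not measured binding.

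A pair of wider lists places the members among other Treg genes. Of 23 tested regulators and partners of Foxp3, 5 were higher and 2 lower in cKO ex vivo, and 3 were higher and 4 lower after stimulation. Of all tested genes 3.62% were higher and 1.67% lower ex vivo, and 3.30% and 3.63% after stimulation. On deposited TPM the list gave 1 higher and 0 lower ex vivo and 0 and 3 after stimulation, and with the 1 TPM filter 0 and 0 ex vivo and 0 and 2 after stimulation. Tcf7, a factor of naive and resting T cells, averaged 424.7 and 424.5 scaled TPM in WT and cKO ex vivo, and 319 in WT and 130 in cKO after stimulation, a stimulated difference of -1.30 (adjusted p 0.000255) with an interaction of the same size (-1.30, 0.0122). It fell with stimulation in cKO (-1.71, adjusted p 4.6e-06). Its change in WT (-0.41, adjusted p 0.0299) was called in 13 of 22 alternatives and turned to 0.48 after quantile normalization. Lef1, its relative, was lower in cKO both ex vivo (-0.69, adjusted p 0.00173) and after stimulation (-1.12, 8.5e-05). Ezh2, a histone methyltransferase that supports Foxp3-dependent repression, averaged 13.2 in WT stimulated and 31.1 in cKO stimulated (1.14, 0.00153). Of 24 other Treg signature genes, 10 were higher and none lower in cKO ex vivo, and 7 were higher and none lower after stimulation, with list medians of 0.50 and 0.32 beside -0.01 and -0.03 for all tested genes and called shares of 3.62% and 3.30% higher. Of the 24, 6 also stand on the lists above (Ikzf2, Ikzf4, Icos, Tigit, Socs2 and Il2rb), so some calls are counted again here. Ex vivo 6 of the 10 calls were made in all 12 fits without a library, and after stimulation 7 of 7. Examples called in both conditions were Ebi3, a subunit of IL-35 (1.19, adjusted p 0.00494, ex vivo; 1.20, 0.00345, stimulated), and Lag3, an inhibitory receptor (1.15, 0.000278; 0.62, 0.00802). On deposited TPM these 24 gave 6 higher ex vivo and 1 after stimulation, and with the 1 TPM filter 0 and 1.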

How the data were processed

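RNA-seq libraries of sorted spleen Treg were made from rRNA-depleted total RNA with a strand-specific kit. Per the labels and the study's methods, the authors aligned 51 bp paired reads to mm9 with STAR 2.6.0c and counted them on Ensembl exons, by strand and in union mode, with HTSeq 0.6.1. The table deposited by the authors gives TPM (an expression signal summing to 1000000 per library) and its log2 value after adding 1 read, from which whole reads (within 0.01) were recovered for 99.9977% of values. A table of the authors' own test results was not used. TPM were not treated as counts. Here, TPM were divided by TMM factors (trimming 30% of M and 5% of A) from the 13318 genes with a group mean of at least 5 TPM. After log2(scaled TPM + 1), limma 3.58.1 in R 4.3.3 (trended eBayes) was fitted to all 12 libraries with the 4 groups as the only term. Fold changes are on the log2(scaled TPM + 1) scale, which understates changes of low genes. P-values were two-sided and Benjamini-Hochberg adjusted over all genes tested. The fit was tested on simulated data. Libraries came from individual mice, and no label pairs them. The 22 alternatives per comparison varied scaling, filter, pseudocount, model and the libraries used. All 7 members were named, with the 3 non-member genes closest in centred log2 profile, and list genes that passed a genotype test or partner a member. Members, lists and the 5 TPM filter were chosen with earlier results of these data known. Reads carry no molecular identifiers, so depth understates error. Positions are from GENCODE vM1 (mm9) and promoters from RefSeq (GRCm38.p6). Scripts used Python 3.11.15.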

Additional observations from a re-analysis of the deposited data

Results flagged for a closer look

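The stimulation effect of Gpr83 differed between genotypes by 1.84 (log2, SE 0.24, adjusted p 0.0122, limma), as it fell in WT (-1.44) and stood higher in cKO (0.41). All 3 stimulated WT libraries lay below the WT ex vivo libraries, and 2 of 3 stimulated cKO libraries lay above all cKO ex vivo libraries. The adjusted p ranged from 0.0032 to 0.447 over 21 alternatives and was under 0.05 in 18 of them. Among the other 6 members no such difference passed, with adjusted p from 0.0501 (Nrp1) to 0.983 (Folr4).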

How the results depend on the processing

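Loss of a call was mostly tied to scaling and filter, and the values of the members that lost one stand beside their results. The number of the 7 members called ex vivo was 0 in every alternative except without cKO ex vivo 2, where Nrp1 was called (range over fits without a library 0 to 1). After stimulation it was 3 in the report, 1 on deposited TPM, 0 with the 1 TPM filter and 0 without a filter (range without a library 3 to 4). It was 3 in place of 6 for stimulation in WT on deposited TPM (range 5 to 6), and 3 in place of 5 for stimulation in cKO on deposited TPM, with the 1 TPM filter and without a filter (range 5 to 7). For the interaction it was 0 on deposited TPM and at both looser filters, 4 after quantile normalization and 2 with a pseudocount of 0.1 (range 1 to 3).

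The number of all genes called ex vivo, 704 in the report, was 273 on deposited TPM, 57 with the 1 TPM filter and 56 without a filter (range without a library 324 to 740). After stimulation 923 became 306 on deposited TPM, 1579 after quantile normalization, 68 with the 1 TPM filter, 68 without a filter and 553 with only the groups compared (398 to 1054). For stimulation in WT 4262 became 1943, 1838 and 1694 on deposited TPM, with the 1 TPM filter and without a filter (3256 to 4387). For stimulation in cKO 5835 ranged from 4098 to 5992 without a library. For the interaction 147 became 67 on deposited TPM, 392 after quantile normalization, 0 with the 1 TPM filter (1926 genes had an unadjusted p under 0.05 in the limma fit of the report), 0 without a filter and 95 with no trend (50 to 203). The share of calls higher in cKO after stimulation was 47.6% in the report and 22.6% on deposited TPM, ex vivo 68.5% and 95.2%. The cause of these changes was not tested. The looser filters add genes near background both to the factors and to the adjustment, and the parts of these were not separated.

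With the replicate number as a replicate block, the interaction gave 65 genes and the genotype effects 516 and 630, and the block changed no call of a member. The correlations of same-numbered libraries ran from -0.208 to 0.257, so the numbers are not taken to pair the libraries.

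Among members, directions reversed only in results that were not called. Among genes of the lists, markers included, 18 of 183 calls reversed under a scaling or filter, all for stimulation effects, 14 of them after quantile normalization. On deposited TPM the ex vivo differences became 0.115 for Foxp3, 0.0644 for Ctla4, 0.235 for Lrrc32, 0.154 for Gpr83 and 0.0333 for Folr4, the stimulated difference of Lrrc32 -0.0328, the WT stimulation effect of Il2ra 0.0474, and the interactions of Ctla4 and Lrrc32 -0.0594 and -0.268. Ex vivo, Il2ra was -0.0119 after median of ratios scaling and -0.0142 with the 1 TPM filter (-0.1004 to 0.0749 without a library). Lrrc32 was 0.0853 after quantile normalization, 0.00125 without a filter and 0.00412 with only the groups compared (-0.1204 to 0.164 without a library), and Ctla4 was 0.0193 after quantile normalization. After stimulation Ctla4 was -0.0108 with the 1 TPM filter and -0.00722 without a filter, and Lrrc32 -0.0486 and -0.0451. Quantile normalization turned Il2ra in WT to 0.365. With the 1 TPM filter and without a filter the cKO stimulation effect was -0.126 and -0.115 for Foxp3 and -0.1198 and -0.109 for Gpr83, and the interaction of Lrrc32 -0.0293 and -0.0463. The interaction of Folr4 was 0.0215 after median of ratios scaling (-0.115 to 0.163 without a library). Gpr83 in WT stimulated rested on 328 to 415 reads, the lowest depth of any member.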
